A study of Mus musculus with 9 samples.

Results

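The 32 genes described here make sterols and fatty acids or control that synthesis through the sterol regulatory element-binding proteins (SREBPs), and they were chosen by name. All 32 were among the 19517 genes of the table analysed. They comprise 8 genes of the mevalonate and isoprenoid steps, 11 of the route from squalene to cholesterol, 4 SREBP regulators, 1 sterol transporter and 8 genes of fatty acid synthesis and desaturation. RNA-seq was done on ovaries of female BALB/c nude mice, which lack a thymus and mature T cells, bearing tumours grown from MDA-MB-231 human breast cancer cells, an established line. There were 3 libraries in each of 3 groups: CTX, given cyclophosphamide, an alkylating chemotherapy drug; CAU, given caulerpin, an alkaloid of green algae; and UT, with no treatment. All 3 groups carried the xenografts, and whether CAU mice also received cyclophosphamide is not stated in the labels, nor are doses, times or ages.

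Cells build cholesterol from acetyl-CoA through mevalonate, isoprenoid diphosphates and squalene. When membrane sterol is low, SCAP escorts the SREBPs from the endoplasmic reticulum to the Golgi for cleavage, and the freed fragments activate genes of sterol synthesis (mainly SREBP-2, from Srebf2) and of fatty acid synthesis (mainly SREBP-1c, from Srebf1), while INSIG proteins hold SCAP back. In the ovary cholesterol is the precursor of steroid hormones, and fatty acid synthesis is also a main activity of adipocytes, the main cells of the fat pad around the ovary.

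The values come from the authors' deposited table of DESeq2 results, which lists for each gene the log2 fold change, p and adjusted p for CTX against UT, CAU against CTX and CAU against UT. It gives no level per library, so neither the 3 values of a group nor the order of expression between genes can be shown, and the depth is unknown here. For the same reason the ovarian label could not be checked by the levels of oocyte or granulosa markers. Beside a log2 fold change stands the standard error (SE) implied by its p. The headers do not name the numerator. A column named for a pair of groups was read as the second group over the first, under which Cdkn1a, a gene induced by p53 after DNA damage, stood at 1.99 (SE 0.32) for CTX against UT in the authors' deposited table, and the opposite reading would turn every sign. No label says that the replicates of a group were different mice, so a p-value here reflects variation among the sequenced samples that could be technical. Comparisons share libraries, so their values for a gene are not independent.

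Promoters show which regulatory letters the genes share, and 25 of the 32 genes had entries in the RefSeq promoter table (build GRCm38.p6, 250 bases before to 50 after a start, 31 entries in all). Fads1, Fdft1, Fdps, Scd1, Scd2, Sqle and Stard4 were not analysed here. On either strand, the NF-Y box CCAAT was in 21 of the 31 member promoters (67.7%), against 37.4% of all 32851 promoters in the table. The GC box GGGCGG, bound by Sp1, was in 23 (74.2%), against 35.7% of all promoters and 50.9% of the promoters of genes in the expression table. Both were in 17 (54.8%), against 12.8% of all promoters and 18.6% of the promoters of genes in the expression table. A core of the sterol regulatory element, TCACNCCAC, was in 1 member promoter, that of Hmgcs1 (1.24% of all promoters), and the E-box form TCACGTGA was in 0 (0.974% of all). SREBPs bind other letters too, so a motif's absence from these windows says nothing about SREBP binding. The 4 promoters below are from Hmgcs1, the 1 with the sterol element core; Tm7sf2 and Elovl6, the genes with the smallest p for CTX against UT and for CAU against UT; and Fasn, the fatty acid synthase gene. They read 5′ to 3′ on the gene's strand, with matches to the 4 motifs on either strand in capitals (ATTGG and CCGCCC are CCAAT and GGGCGG read on the other strand).
Hmgcs1: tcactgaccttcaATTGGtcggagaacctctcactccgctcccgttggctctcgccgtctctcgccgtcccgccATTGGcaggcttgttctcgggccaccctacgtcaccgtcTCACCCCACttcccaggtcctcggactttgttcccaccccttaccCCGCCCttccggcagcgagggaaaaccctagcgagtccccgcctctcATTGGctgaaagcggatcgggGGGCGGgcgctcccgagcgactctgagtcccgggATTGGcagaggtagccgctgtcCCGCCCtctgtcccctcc
Tm7sf2: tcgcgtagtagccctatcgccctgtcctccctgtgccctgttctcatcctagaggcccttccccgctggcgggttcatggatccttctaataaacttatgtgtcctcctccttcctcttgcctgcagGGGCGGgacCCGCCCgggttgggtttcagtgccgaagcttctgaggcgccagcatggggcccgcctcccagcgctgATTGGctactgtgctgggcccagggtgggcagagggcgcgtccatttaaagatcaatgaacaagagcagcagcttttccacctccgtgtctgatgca
Fasn: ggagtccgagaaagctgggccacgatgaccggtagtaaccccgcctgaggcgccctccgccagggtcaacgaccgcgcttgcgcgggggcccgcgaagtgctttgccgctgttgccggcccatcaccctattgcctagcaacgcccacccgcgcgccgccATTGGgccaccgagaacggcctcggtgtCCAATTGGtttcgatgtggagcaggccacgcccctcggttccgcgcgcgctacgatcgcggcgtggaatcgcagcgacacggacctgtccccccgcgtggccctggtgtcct
Elovl6: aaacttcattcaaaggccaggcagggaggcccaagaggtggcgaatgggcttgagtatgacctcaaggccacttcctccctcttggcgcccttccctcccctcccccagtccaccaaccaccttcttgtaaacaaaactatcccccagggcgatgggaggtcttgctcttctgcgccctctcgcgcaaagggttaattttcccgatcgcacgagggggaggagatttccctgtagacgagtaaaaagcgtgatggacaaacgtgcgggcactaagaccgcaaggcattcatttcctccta
The Hmgcs1 promoter lies at chr13:119690101-119690400 on the plus strand, and its sterol element core begins 137 bases before the start, with 4 NF-Y boxes and 3 GC boxes beside it. The Tm7sf2 promoter, at chr19:6067801-6068100 on the minus strand, has 1 NF-Y box and 2 GC boxes. The Fasn promoter, at chr11:120824498-120824797 on the minus strand, has 3 NF-Y matches, of which 2 overlap in one palindrome, and no GC box. The Elovl6 promoter, at chr3:129532136-129532435 on the plus strand, holds none of the 4 motifs.

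None of the 32 genes passed the threshold of adjusted p under 0.05 in any of the 3 comparisons. Over all genes, the authors' deposited table calls 1.29% for CTX against UT (0.472% higher and 0.820% lower), 0.442% for CAU against CTX (0.312% higher and 0.130% lower) and 0.0518% for CAU against UT (0.0311% higher and 0.0207% lower). At an unadjusted DESeq2 p under 0.05, 5 members passed for CTX against UT (15.6%, against 10.2% of all genes). They were Tm7sf2 and Scd2 with positive values (4.42% of all genes) and Pmvk, Fasn and Elovl6 with negative ones (5.79% of all genes). For CAU against CTX 2 members passed, Hsd17b7 and Scap (6.25%, against 5.36% of all genes), both negative (3.32% of all genes were positive and 2.04% negative at that p). For CAU against UT 5 passed (15.6%, against 3.46% of all genes). The median log2 fold change of the members was 0.07, -0.10 and 0.03 in these comparisons, and that of all genes -0.03, 0.00 and -0.01. The 24 genes outside fatty acid synthesis stayed between -0.39 (Pmvk) and 0.46 (Tm7sf2) in all 3 comparisons. The 8 fatty acid genes ranged from -1.84 to 0.38 for CTX against UT and from -1.99 to 0.21 for CAU against UT, so the ranges overlapped, and no test of roles was made.

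**Figure D1:**
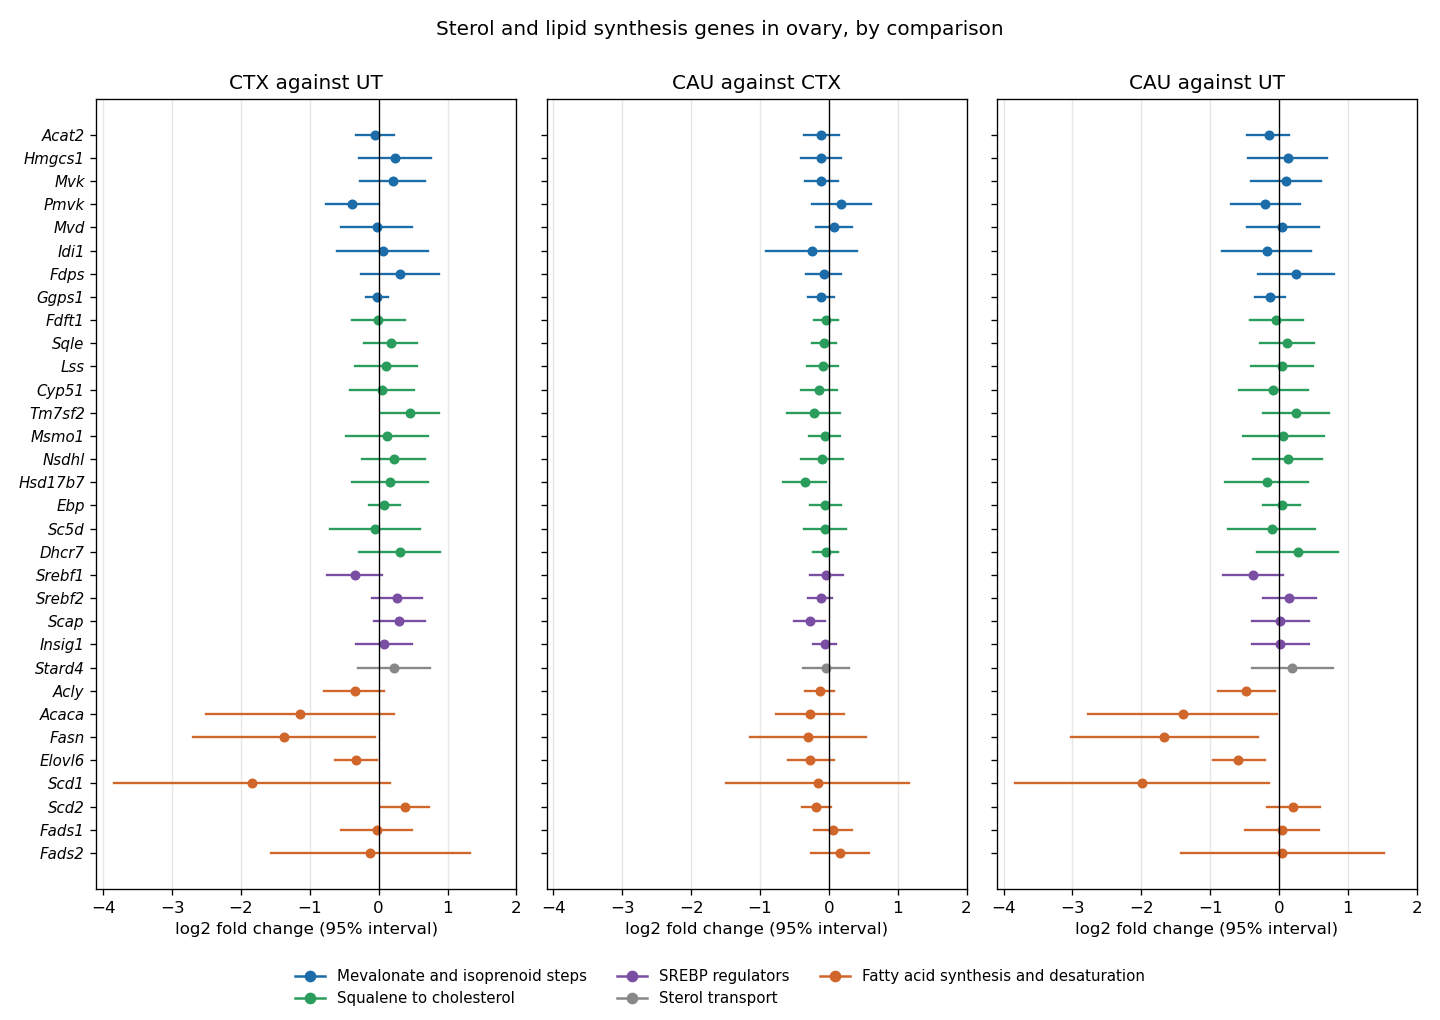
Log2 fold changes of the 32 genes (points) with 95% intervals (lines) in the 3 comparisons, coloured by role; values above 0 are higher in the first group named. Points of the sterol and mevalonate genes stay between -0.39 and 0.46, while Acaca, Fasn and Scd1 lie below -1 in both comparisons with UT and have the widest intervals beside Fads2.

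In the mevalonate and isoprenoid steps, differences were small in both directions. For CTX against UT the 8 log2 fold changes ran from -0.39 to 0.31 per the authors' deposited table, 4 positive and 4 negative (5 and 3 once the median of all genes is set to 0). Pmvk, whose product phosphorylates mevalonate phosphate, had the smallest p of the group, at -0.39 (SE 0.19, adjusted p = 0.460) per the authors' deposited table. Fdps, which encodes farnesyl diphosphate synthase, was at 0.31 (SE 0.29) and Hmgcs1, which encodes the cytosolic HMG-CoA synthase, at 0.24 (SE 0.27) per the authors' deposited table. Both intervals included 0. Mvk, the mevalonate kinase gene, was at 0.21 (SE 0.24) and Mvd, which encodes the decarboxylase that yields isopentenyl diphosphate, at -0.03 (SE 0.27) per the authors' deposited table. Idi1, the isopentenyl diphosphate isomerase gene, was at 0.06 (SE 0.34), and Acat2, which encodes the cytosolic thiolase that makes acetoacetyl-CoA, at -0.05 (SE 0.14) per the authors' deposited table. Ggps1, the geranylgeranyl diphosphate synthase gene, had the smallest SE of all members in this comparison, at -0.02 (SE 0.09, 95% interval -0.19 to 0.14) per the authors' deposited table.

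For CAU against CTX, 6 of these 8 genes were negative, between -0.25 for Idi1 and -0.07 for Fdps per the authors' deposited table, and Pmvk and Mvd were positive at 0.18 (SE 0.22) and 0.08 (SE 0.13). Ggps1 had the smallest p of the group, as for CAU against UT, at -0.11 (SE 0.10) per the authors' deposited table. For CAU against UT the group ran from -0.20 (Pmvk, SE 0.25) to 0.24 (Fdps, SE 0.28) per the authors' deposited table, with Ggps1 at -0.13 (SE 0.11). All 8 intervals excluded a 2-fold difference in each of the 3 comparisons, with bounds between -0.91 and 0.88 on the log2 scale.

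Reads of some of these genes may be hard to assign. Of the 75-base words in protein-coding Fdps transcripts of GENCODE M21, 58.5% also occur in transcripts of 5 other genes, all with predicted-gene symbols. The share was 35.6% for Acat2, shared with Acat3, and 18.9% for Idi1. How the authors treated such reads is not given in the sources used here, so the values of these 3 genes are uncertain in that respect.

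From squalene to cholesterol, the 11 genes were at most 1.38-fold apart between groups in any comparison. For CTX against UT, 9 were positive and 2 negative (10 and 1 once centred on all genes), with a median of 0.12. Tm7sf2, a sterol C14 reductase gene, had the highest value and the smallest p of all 32 members in this comparison, at 0.46 (SE 0.21, adjusted p = 0.421) per the authors' deposited table. Of its 75-base words 17.4% also occur in transcripts of Vps51. A late reductase gene of the pathway, Dhcr7, was at 0.31 (SE 0.30), and Nsdhl, whose product removes carbon from the C4 position, at 0.22 (SE 0.24) per the authors' deposited table. Sqle, the squalene epoxidase gene and a rate-limiting step of the sterol branch, was at 0.18 (SE 0.20) per the authors' deposited table. The intervals of Dhcr7, Nsdhl and Sqle included 0. Hsd17b7, a sterol 3-keto reductase gene, was at 0.16 (SE 0.28), Msmo1, the C4 methyl oxidase gene, at 0.12 (SE 0.30), and Lss, which closes the sterol rings as lanosterol synthase, at 0.11 (SE 0.23) per the authors' deposited table. The sterol isomerase gene Ebp was at 0.08 (SE 0.11) and the lanosterol demethylase gene Cyp51 at 0.05 (SE 0.24) per the authors' deposited table. Fdft1, which encodes squalene synthase and commits carbon to sterols, was at -0.01 (SE 0.20), and the desaturase gene Sc5d at -0.06 (SE 0.34) per the authors' deposited table.

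Between CAU and CTX all 11 sterol genes were negative per the authors' deposited table, from -0.35 to -0.04 with a median of -0.07, where 47.7% of all genes were negative. Other lists were one-sided there too, with all 9 oocyte markers negative and all 9 surface epithelium markers positive. Of the sterol genes only Hsd17b7 had an interval clear of 0, at -0.35 (SE 0.16, adjusted p = 0.754; 95% interval -0.66 to -0.04) per the authors' deposited table. Tm7sf2 followed at -0.22 (SE 0.20) and Cyp51 at -0.14 (SE 0.13) per the authors' deposited table. Sqle, with the smallest SE of the group, was at -0.07 (SE 0.09; 95% interval -0.24 to 0.10) per the authors' deposited table. The 11 intervals together spanned -0.66 to 0.25, so a 2-fold difference lay outside all of them. For CAU against UT, 7 were positive and 4 negative with a median of 0.04, from -0.18 (Hsd17b7, SE 0.31) to 0.27 (Dhcr7, SE 0.30) per the authors' deposited table. Tm7sf2, with the smallest p, was at 0.25 (SE 0.24) per the authors' deposited table. Ebp, with the smallest SE, was at 0.04 (SE 0.14; 95% interval -0.23 to 0.31) per the authors' deposited table.

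Among the SREBP regulators, the genes of the SREBP isoforms stood on opposite sides of 0 against UT. Srebf2 was at 0.27 (SE 0.18, adjusted p = 0.729) for CTX against UT and at 0.15 (SE 0.20) for CAU against UT per the authors' deposited table. Srebf1 was at -0.35 (SE 0.20, adjusted p = 0.603) for CTX against UT and at -0.38 (SE 0.22) for CAU against UT per the authors' deposited table. All 4 intervals included 0, and the difference between the genes was not tested. Scap was at 0.30 (SE 0.19) for CTX against UT and 0.02 (SE 0.21) for CAU against UT per the authors' deposited table. This gene encodes the SREBP escort. Scap had the smallest p of all 32 members for CAU against CTX, at -0.28 (SE 0.12, adjusted p = 0.597; 95% interval -0.51 to -0.05) per the authors' deposited table. Srebf2 was at -0.12 (SE 0.09) and Srebf1 at -0.04 (SE 0.12) in that comparison of the authors' deposited table. Insig1, itself a sensitive SREBP target, was at 0.08 (SE 0.21) for CTX against UT, -0.06 (SE 0.08) for CAU against CTX and 0.02 (SE 0.21) for CAU against UT per the authors' deposited table. Stard4, a cytosolic sterol carrier and SREBP-2 target, was at 0.23 (SE 0.27), -0.04 (SE 0.17) and 0.19 (SE 0.30) in the same order of comparisons per the authors' deposited table. None of these 5 genes passed the threshold.

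Against UT, fatty acid genes gave the members' largest differences and their largest errors. Fasn, the fatty acid synthase gene, was at -1.38 (SE 0.67, adjusted p = 0.453) for CTX against UT and at -1.67 (SE 0.69; fold change 0.315) for CAU against UT per the authors' deposited table. Scd1, the main stearoyl-CoA desaturase gene of mouse liver and fat, was at -1.84 (SE 1.02, adjusted p = 0.564) and -1.99 (SE 0.94; fold change 0.251) in these comparisons of the authors' deposited table. Acaca, which encodes the acetyl-CoA carboxylase that makes malonyl-CoA, was at -1.14 (SE 0.70) and -1.40 (SE 0.70) in the same comparisons of the authors' deposited table. These 3 genes had estimates below -1 in both treated groups, and none passed. The median over the 8 genes was -0.34 for CTX against UT and -0.53 for CAU against UT, but -0.18 and -0.22 over the members with an SE of at most 0.5, and -0.14 and -0.31 as error-weighted means over all 8. Acaca shared 44.2% of its 75-base words with Gm5182, so its reads may be split.

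Elovl6, which elongates C16 fatty acids, was at -0.33 (SE 0.16, adjusted p = 0.436) for CTX against UT and at -0.59 (SE 0.19, adjusted p = 0.527; 95% interval -0.96 to -0.21) for CAU against UT per the authors' deposited table. Its p for CAU against UT was the smallest of any member in any comparison (unadjusted p = 0.00224). When the z values of that comparison were scaled to a spread of 1, Elovl6 had adjusted p = 0.00408, but calls over all genes went from 10 to 255. With the median of all genes at 0, Elovl6 had adjusted p = 0.577. Acly, which makes cytosolic acetyl-CoA from citrate, was at -0.35 (SE 0.22) for CTX against UT and -0.48 (SE 0.21) for CAU against UT per the authors' deposited table. Fasn, Scd1, Acaca, Elovl6 and Acly were thus the 5 members with unadjusted p under 0.05 for CAU against UT, all of them negative, where 2.26% of all genes were negative at that p. They make up 5 of the 8 fatty acid genes and 0 of the other 24 members.

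The remaining fatty acid genes lay near or above 0 against UT. Scd2, a desaturase gene near Scd1, was at 0.38 (SE 0.18, adjusted p = 0.433) for CTX against UT and 0.21 (SE 0.20) for CAU against UT per the authors' deposited table. The delta-5 desaturase gene Fads1 was at -0.02 (SE 0.26) and 0.04 (SE 0.28), and the delta-6 desaturase gene Fads2 at -0.12 (SE 0.74) and 0.05 (SE 0.75), in these comparisons of the authors' deposited table. Scd2 and Scd1 lie 87.6 kb apart on chromosome 19 (44293676 to 44306864 and 44394450 to 44407709 in GRCm38.p6), and Fads2 and Fads1 81.4 kb apart on the same chromosome. The signs of Scd1 and Scd2 were opposite against UT, and the errors of Fads1 and Fads2 unequal, with no test of either contrast. Only 3.20% of Scd1 words and 1.80% of Scd2 words of 75 bases occur in transcripts of other genes.

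Between CAU and CTX the fatty acid genes were close. The 8 values ran from -0.30 (Fasn, SE 0.43) to 0.16 (Fads2, SE 0.21) per the authors' deposited table, 6 negative and 2 positive, with a median of -0.17. Scd2 had the smallest p and the smallest SE of the group, at -0.18 (SE 0.11) per the authors' deposited table. Elovl6 was at -0.27 (SE 0.17), Acaca at -0.27 (SE 0.25) and Acly at -0.13 (SE 0.11) per the authors' deposited table. Scd1 was at -0.16 (SE 0.68) and Fads1 at 0.06 (SE 0.14) per the authors' deposited table. All 8 intervals included 0, and those of Fasn and Scd1 did not exclude a 2-fold difference.

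Adipocyte markers had negative values beside those of the fatty acid genes. All 9 were negative for CTX against UT, from -1.94 to -0.01 with a median of -1.36, and for CAU against UT, from -2.21 to -0.10 with a median of -1.46 per the authors' deposited table. Plin1, a lipid droplet coat gene, had the smallest p of the list against UT, at -0.76 (SE 0.34) for CTX and -0.90 (SE 0.36) for CAU per the authors' deposited table. Cfd, the adipsin gene, was at -1.92 (SE 0.97) and -2.21 (SE 1.11) in these comparisons of the authors' deposited table. Only these 2 of the 9 had intervals clear of 0 against UT. The leptin gene Lep and the adipogenic regulator gene Pparg were near 0 for CTX against UT, at -0.01 (SE 0.62) and -0.02 (SE 0.21) per the authors' deposited table. With the median of all genes at 0, 7 of the 9 were negative for CTX against UT. None of the 9 passed the threshold. For CAU against CTX the adipocyte median was -0.12, with 8 of 9 negative. The median SE for CTX against UT was 0.97 over the adipocyte markers and 0.47 over the 8 fatty acid members, whose SEs ran from 0.16 (Elovl6) to 1.02 (Scd1). In bulk tissue, fewer cells of a type and less RNA per cell cannot be told apart, and the part of adipocyte content in the fatty acid values was not tested.

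**Figure D2:**
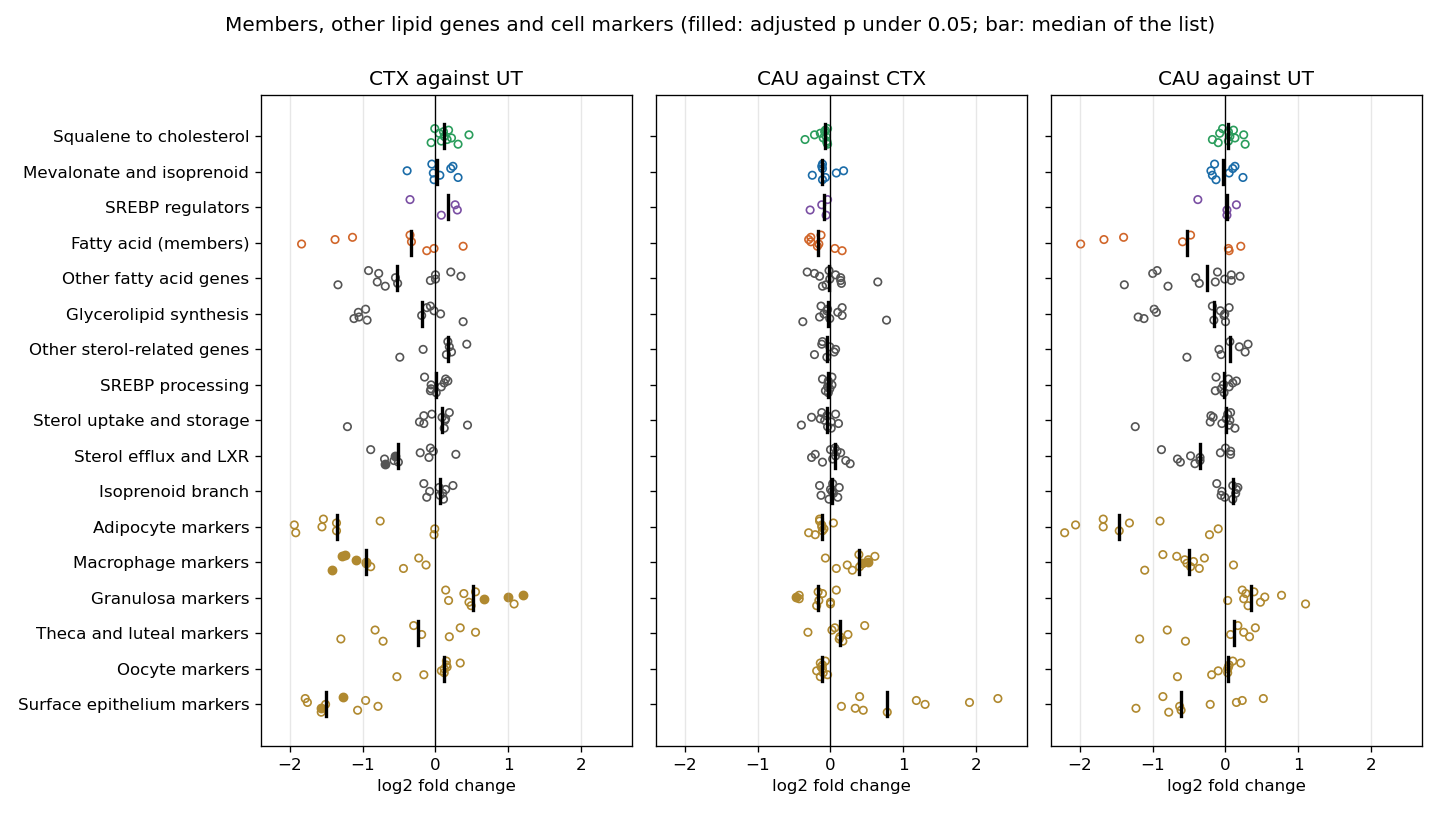
Log2 fold changes of single genes (circles; filled where adjusted p is under 0.05) and list medians (bars) for the members by role except Stard4, for other lipid genes and for cell markers, in the 3 comparisons. Fatty acid members range from -1.84 to 0.38 for CTX against UT (median -0.34, or -0.18 with an SE of at most 0.5) and adipocyte markers from -1.94 to -0.01 (median -1.36), and no member is filled in any panel.

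Other lipid genes, from 7 lists drawn up by pathway, numbered 70. The only calls among them were 2 for CTX against UT, where 1.29% of all genes were called. Of 12 other fatty acid genes, 10 were negative for CTX against UT (median -0.53) and 9 for CAU against UT (median -0.25), with 0 passing. After centring on all genes 8 were negative in either comparison. The smallest p of that list was for Acss2, an acetyl-CoA synthetase gene, at -0.92 (SE 0.41) for CTX against UT, and for Acacb, the mitochondrial acetyl-CoA carboxylase gene, at -1.0 (SE 0.35, adjusted p = 0.805) for CAU against UT per the authors' deposited table. For CAU against CTX it was for Me1, the NADPH-forming malic enzyme gene, at -0.32 (SE 0.12, adjusted p = 0.455) per the authors' deposited table. Of the 11 glycerolipid genes 9 were negative in both comparisons with UT (8 for CTX against UT after centring), and Dgat1, which makes triglyceride, was at -1.05 (SE 0.43) for CTX and -1.20 (SE 0.43) for CAU against UT per the authors' deposited table. The smallest p of that list for CAU against CTX was for the phosphatidate phosphatase gene Lpin3, at 0.16 (SE 0.14) per the authors' deposited table. None of the glycerolipid genes passed.

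Sterol genes outside the 32, apart from those of efflux, gave no calls. Por, which feeds electrons to Cyp51 and other enzymes, was at -0.53 (SE 0.23) for CAU against UT per the authors' deposited table. Pgrmc1, a haem-binding partner of sterol enzymes, was at -0.22 (SE 0.09) for CAU against CTX per the authors' deposited table. Of 7 such genes, 9 genes of SREBP processing, 9 of the isoprenoid branch and 11 of sterol uptake and storage, 0 passed in any comparison. Over all genes 1.29% passed for CTX against UT, 0.442% for CAU against CTX and 0.0518% for CAU against UT. Their medians lay between -0.05 and 0.17. In the uptake and storage list the smallest p was for Npc2, a lysosomal sterol carrier gene, in both comparisons with UT, at -0.22 (SE 0.10) for CTX and -0.21 (SE 0.10) for CAU per the authors' deposited table. Soat1, whose product esterifies cholesterol for storage, had it for CAU against CTX, at -0.40 (SE 0.15, adjusted p = 0.477) per the authors' deposited table. Mbtps2 and Mbtps1, the genes of the SREBP cleaving proteases, led the processing list at 0.17 (SE 0.11) for CTX against UT and at -0.11 (SE 0.08) for CAU against CTX per the authors' deposited table. In the isoprenoid branch, Nus1 was at 0.14 (SE 0.09) for CTX against UT and Dhdds, its partner in dolichol synthesis, at 0.12 (SE 0.09) for CAU against CTX and 0.17 (SE 0.11) for CAU against UT per the authors' deposited table.

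Genes of sterol efflux and its LXR control were the 1 lipid list with calls. For CTX against UT, 2 of 11 fell and none rose (0.820% of all genes were called lower), 10 were negative and the median was -0.51. Cyp27a1, a sterol 27-hydroxylase gene, was at -0.69 (SE 0.14, adjusted p = 0.000199) and Apoe, the lipid carrier apolipoprotein E gene, at -0.56 (SE 0.10, adjusted p = 9.04e-06) per the authors' deposited table. Between CAU and CTX they were at 0.27 (SE 0.14) and 0.07 (SE 0.15), and for CAU against UT at -0.42 (SE 0.16) and -0.48 (SE 0.18) per the authors' deposited table. Neither gene passed in these comparisons. Macrophages, which express both genes, had lower markers in the same comparison: for CTX against UT 6 of 10 fell, all 10 were negative, and the values ran from -1.42 to -0.13, with Csf1r at -1.29 (SE 0.18), C1qb at -0.96 (SE 0.16) and C1qc at -0.96 (SE 0.19) per the authors' deposited table. In CAU against CTX 9 of 10 were positive, and 0.312% of all genes were called higher. C1qb and C1qc rose, at 0.51 (SE 0.12) and 0.43 (SE 0.11) per the authors' deposited table. The part of macrophages in the efflux values was not tested.

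Markers of other ovarian cells also differed between CTX and UT. For CTX against UT all 10 granulosa markers were positive (median 0.52) and 3 rose, Inhbb at 1.00 (SE 0.21), Fst at 0.67 (SE 0.15) and Inhba at 1.20 (SE 0.32) per the authors' deposited table, where 0.472% of all genes were called higher. The count was 5 once log2 fold changes were centred on all genes, and 5 at a threshold of 0.10. Between CAU and CTX the granulosa median was -0.16 and Inhbb fell, at -0.47 (SE 0.09, adjusted p = 0.000565) per the authors' deposited table. In that comparison 0.130% of all genes were called lower. The 9 oocyte markers had medians of 0.12, -0.11 and 0.03 in the 3 comparisons, and the 8 theca and luteal markers -0.24, 0.12 and 0.12, with 0 called in either list. The median SE for CTX against UT was 0.16 over the oocyte markers and 0.74 over the theca and luteal markers. In that comparison 8 of 9 oocyte intervals excluded a 2-fold difference, but 0 of 8 theca and luteal ones did. Surface epithelium markers were all negative for CTX against UT (9 of 9, median -1.51), where 0.820% of all genes were called lower. Upk3b and Lrrn4 fell, at -1.27 (SE 0.32) and -1.57 (SE 0.43) per the authors' deposited table, though neither at a threshold of 0.01. For CAU against CTX all 9 were positive, from 0.15 to 2.30 with a median of 0.78. At an unadjusted DESeq2 p under 0.05, 5 passed, where 3.32% of all genes were positive, but 0 passed the threshold. For CAU against UT 6 of the 9 were negative, with a median of -0.61. The part of these cell types in the members' values was not tested.

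Across the members, the errors themselves differed by comparison. The median implied SE was 0.24 for CTX against UT and 0.26 for CAU against UT, but 0.13 for CAU against CTX, where all genes had medians of 0.20, 0.23 and 0.18 (over the 18773 genes with all 3 comparisons). The z values of all genes had robust spreads of 1.014 for CTX against UT, 0.841 for CAU against CTX and 0.711 for CAU against UT. The implied SEs and the intervals were not adjusted for these unequal spreads. In 27 of 32 members both comparisons that involve UT had the larger SE (84.4%, against 57.8% of all genes). The SE for CTX against UT was more than 2 times that for CAU against CTX in 11 members (34.4%), against 1.93% of all genes and 3.03% of the 10175 genes with an SE of at most 0.2 for CAU against CTX. The spread among the UT libraries themselves cannot be seen without values per library.

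This ratio of SEs reached across the roles. Fads2 had the largest, 3.44 (SE 0.74 for CTX against UT and 0.21 for CAU against CTX), followed by Dhcr7 at 3.17 (SE 0.30 and 0.09), Acaca at 2.76, Msmo1 at 2.60 and Insig1 at 2.49. Sqle, Fdps, Fdft1, Sc5d, Srebf2 and Acly were also above 2. At the other end, Ggps1 (0.87), Pmvk (0.88), Elovl6 (0.93), Ebp (0.97) and Idi1 (1.00) had an SE for CTX against UT no larger than that for CAU against CTX. For CAU against UT, Pmvk (1.17), Ebp (1.16), Ggps1 (1.13) and Elovl6 (1.13) had the larger SE, and Idi1 (0.98) did not. Cell markers shared this feature to varying extents. The ratio was above 2 in 5 of 8 theca and luteal markers (median 2.45), in 3 of 10 granulosa markers (median 1.46) and in 1 of 9 adipocyte markers (median 1.14). Both comparisons with UT had the larger SE in 8 of 8 theca and luteal, 8 of 10 granulosa and 8 of 9 adipocyte markers. The part of these cells in the members' errors was not tested.

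**Figure D3:**
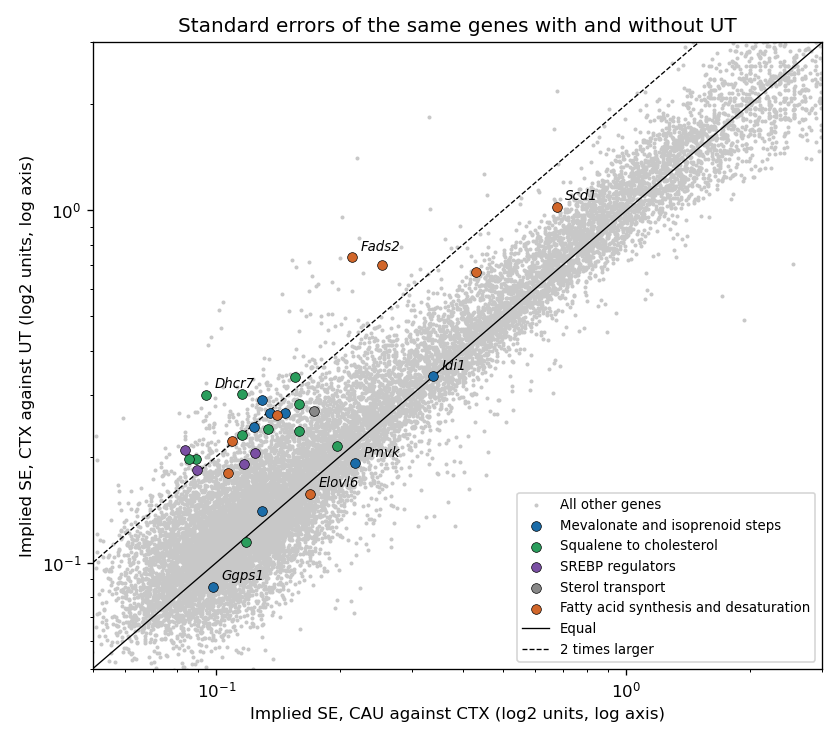
Implied SE for CTX against UT (y axis) and for CAU against CTX (x axis), both in log2 units on log axes, with the 32 members coloured by role over all other genes (grey). Most members lie above the solid line of equal SEs, and 11 lie above the dashed line where the SE with UT is 2 times larger.

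These errors and the cutoff of each comparison together set what could have been called. The z of the largest called p was 3.43 for CTX against UT, 3.70 for CAU against CTX and 4.34 for CAU against UT. With the largest p that the authors' deposited table calls in each comparison, a member of median SE needed a log2 difference of 0.81 for CTX against UT, 0.49 for CAU against CTX and 1.11 for CAU against UT. The size needed ran from 0.29 (Ggps1) to 3.50 (Scd1) for CTX against UT, from 0.31 (Insig1) to 2.50 (Scd1) for CAU against CTX, and from 0.48 (Ggps1) to 4.09 (Scd1) for CAU against UT. Of the 32 intervals, 28 excluded a 2-fold difference for CTX against UT, 30 for CAU against CTX and 28 for CAU against UT. The exceptions against UT were Acaca, Fasn, Scd1 and Fads2 in both comparisons, and Fasn and Scd1 between CAU and CTX.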

How the data were processed

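RNA-seq of ovarian tissue was analysed from the authors' deposited table of comparisons. Its columns, per the file headers, are the authors' log2 fold change between groups, DESeq2 p-value and q-value (called adjusted p here), in 3 pairs of groups. The submitters' processing notes name, with no roles, the build GRCm38.p6 and the tools DESeq2 1.44.0, RSEM 1.3.1, Bowtie2 and HISAT2. Of filters, strand setting, model and depth, the sources used here give none. Blank entries, 215 to 272 per comparison, were not used.

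The implied SE is the absolute log2 fold change over the size of z for its 2-sided p, on the assumption of an unshrunken Wald test, and 95% intervals use a normal distribution. The log2 fold changes of CTX against UT and CAU against CTX summed to that of CAU against UT, up to a constant and 0.01, in 18772 of 18773 genes. The adjusted p threshold was 0.05, with adjustment over all genes. The size needed for a call is the z of the largest called p times the SE. Lists are described by counts and medians, with no list test. The scripts were tested on simulated data. Tools were scipy 1.17.1, pandas 2.3.3, numpy 2.4.6 and matplotlib 3.10.9 in Python 3.11.15, and sequences came from RefSeq and GENCODE M21 (both GRCm38).

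Members and lists were chosen with earlier results of these data known. By the naming rule, each role group's members with the smallest p and smallest SE are named, the others where a sentence turns on them, and of other lists the called genes or that with the smallest p. Plin1, Cfd, Lep and Pparg were added after their values were seen. Some genes that the rule names are not reported here. Alternatives changed the threshold, the zero point, the spread of z, the filter on imprecise genes and the adjustment. The background of genes with an SE of at most 0.2 was added after the data were seen.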

Additional observations from a re-analysis of the deposited data

How the results depend on the processing

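The count of 0 called members held for CTX against UT and for CAU against CTX under all 6 alternatives, and for CAU against UT under 5. With z scaled to a robust spread of 1, 1 member (Elovl6) was called for CAU against UT, where the calls over all genes were 255 against 10 and the share called higher was 33.3% against 60.0%. The deposited z values of that comparison had a spread of 0.711. With the same scaling, the calls were 237 against 85 for CAU against CTX (spread 0.841), where the smallest adjusted p of a member was 0.153 (Scap). Scaling also gave calls for CAU against UT in 5 macrophage, 2 granulosa, 2 surface epithelium, 1 adipocyte, 2 efflux, 1 other fatty acid and 1 glycerolipid genes (0 as reported), and for CAU against CTX in 4 macrophage, 2 granulosa and 1 surface epithelium genes (2, 1 and 0 as reported, with 1 macrophage gene at a threshold of 0.01). Thresholds of 0.10 and 0.01 gave 415 and 117 calls for CTX against UT against 249 at 0.05, and the threshold of 0.01 gave 43 for CAU against CTX. Once log2 fold changes were centred on the median of all genes, calls for CTX against UT were 290 with 156 higher and 134 lower, against 91 higher and 158 lower. The members' medians moved by less than their median SE in all 12 alternatives. That SE is of single genes (0.24, 0.13 and 0.26) and larger than the medians themselves (0.07, -0.10 and 0.03). A change of sign could thus pass, so this limit says little about how stable the medians are. For CAU against UT the median of 0.03 became -0.06 as an error-weighted mean. No paired analysis was possible because the table holds no value per library, and leaving out replicates and other count tools were not run for that reason. Depth per library is unknown, and the errors of Acaca, Fasn, Scd1 and Fads2 limit what can be said of fatty acid genes.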
